A study of Rattus norvegicus with 3 samples.

Results

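Shank, Dlgap and Dlg genes code for the stacked scaffold proteins of the postsynaptic density, and 9 of them are described here across the cell classes of the rat nucleus accumbens: Shank1, Shank2, Shank3, Dlgap1, Dlgap2, Dlgap3, Dlgap4, Dlg2 and Dlg4. They were taken by symbol from the 23098 features of the count tables, and all 9 were found. The set was chosen by values of these same libraries: Shank3 for its higher level in the high anxiety library, and Dlgap3 for its lower level in the urolithin A library. Differences of the 9 genes between libraries are therefore given as a description without a test, and tests are kept for differences between cell classes, which did not choose the set.

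The study asked how the accumbens of anxious rats differs from that of calm rats and what urolithin A, a gut bacterial product of ellagitannins known to induce mitophagy, does to it. Outbred Wistar rats had been sorted by their behaviour in a plus maze and in tests with an open field and a new object. There were 3 libraries of single nuclei, 1 for each group: untreated low anxiety rats, untreated high anxiety rats, and high anxiety rats given urolithin A over 2 months. Each library was made from the pooled punches of 5 hemispheres at 16 weeks of age, so animals cannot be told apart and there are no replicates of a condition. The labels give no sex, vehicle or dose. The strain is outbred, and the libraries also differ in the animals they hold.

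Glutamate receptors at a spiny synapse are held by the Dlg proteins, membrane-associated guanylate kinases such as PSD-95, the product of Dlg4, and PSD-93, the product of Dlg2. Dlgap proteins, also called SAPAPs, bind the guanylate kinase domain of the Dlg proteins and pass the chain on to the Shank proteins, which reach Homer and the actin cytoskeleton. In the striatum Shank3 and Dlgap3 are known as the abundant members of their families, and mice that lack either gene groom compulsively and have weakened corticostriatal synapses.

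Between 3619 and 4066 barcodes were deposited per library, with 16728049 to 22095390 unique molecular identifiers (UMIs, counts of distinct transcripts). After filtering, 3379, 3694 and 3421 nuclei were kept, with medians of 3952, 4549.5 and 4726 UMIs. Libraries shared 4 to 6 barcodes pairwise. Levels are UMIs summed over the nuclei of a class and scaled to the class total of a library (CPM). Gene lengths were not used here, so levels are compared within a gene and not between genes. Nuclear RNA also holds unspliced transcripts, and long genes such as Dlg2 can gain counts from introns, so a level here is not a protein level. Low anxiety, high anxiety and urolithin A values are always given in that order.

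Cell classes were rebuilt from the counts with the 9 genes left out of the clustering. D1 medium spiny neurons, the projection neurons with the dopamine receptor Drd1, held 471, 427 and 563 nuclei. D2 medium spiny neurons, with Drd2 and Adora2a, held 556, 505 and 528. Their markers separated them: D1 neurons had 238, 234 and 208 CPM of Drd1 against 11.9, 4.19 and 8.54 CPM in D2 neurons, and D2 neurons had 526, 571 and 478 CPM of Drd2 against 1.81, 4.81 and 3.99 CPM in D1 neurons. A spiny cluster led by Htr4 and Drd3 (304, 237 and 203 nuclei) and one led by Itgb6 and Grpr (58, 59 and 81) stayed outside both names. The Htr4 and Drd3 cluster resembled D1 neurons in both receptors, with 231, 217 and 186 CPM of Drd1 and 2.48, 5.10 and 7.71 CPM of Drd2. The class called GABAergic interneurons (166, 189 and 369 nuclei) held 3 clusters, and the share of the one led by Crh and Spp1 was 61.4%, 54.0% and 63.4%. That cluster loses its name at a finer resolution. Interneuron levels and tests include it, and values without it stand beside those that it moves most.

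Dlg2, the PSD-93 gene, had its highest levels in D2 and D1 neurons, at 7290 ± 110 and 7131 ± 235 CPM (SD over the 3 libraries), and the ranges of these classes overlapped. The Htr4 and Drd3 cluster followed with 6554 ± 112, eccentric spiny neurons with 5431 ± 239 and interneurons with 4403 ± 558 CPM. Precursors of oligodendrocytes still had 2493 ± 307 CPM, oligodendrocytes 1168 ± 67.7, astrocytes 401 ± 285 and microglia 111 ± 54.2. From D1 neurons downwards no neighbours in that order overlapped, but without the Crh and Spp1 cluster the interneurons (5239, 5637 and 5074 CPM) overlapped with eccentric spiny neurons. Dlg4, the PSD-95 gene, had few UMIs and lay between 62.4 and 70.0 CPM on average in the 4 spiny classes, whose ranges overlapped, with interneurons at 38.4 ± 4.15 and oligodendrocytes at 11.1 ± 1.22 CPM.

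The Dlgap genes differed in the classes where they were high. Dlgap2 was highest in D1 neurons (1327 ± 40.9 CPM), above D2 neurons (1225 ± 43.9) without overlap, and was at 690 ± 156 in interneurons (991 ± 144 without the Crh and Spp1 cluster) and 105 ± 7.63 in precursors. Dlgap3 had overlapping ranges in D2 neurons (355 ± 45.3), in the Htr4 and Drd3 cluster (354 ± 29.6) and in D1 neurons (312 ± 33.2). Within each library, D2 neurons (353, 401 and 310 CPM) were above D1 neurons (299, 349 and 286 CPM). It was lower in eccentric spiny neurons (227 ± 10.4) and interneurons (111 ± 20.4), and averaged under 20 CPM in each glial class. Dlgap1 had another order: precursors of oligodendrocytes (1624 ± 34.3 CPM) and interneurons (1613 ± 439) were on top with overlapping ranges, eccentric spiny neurons had 612 ± 107, and D1 and D2 neurons had 350 ± 14.4 and 336 ± 5.55. Glutamatergic neurons, which had too few nuclei in 2 libraries for that order, were also high in Dlgap1 at 1920, 1936 and 1809 CPM. Dlgap4 was even over the spiny classes (148 to 158 CPM on average) and lower in interneurons (78.3 ± 11.8) and precursors (87.4 ± 26.7). Committed oligodendrocyte precursors, with too few nuclei for that order, were higher, at 356, 385 and 274 CPM of Dlgap4 (20, 69 and 30 UMIs).

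Of the Shank genes, Shank3 was highest in D2 (197 ± 26.5 CPM) and D1 neurons (194 ± 36.7), which overlapped, and then in the Htr4 and Drd3 cluster (170 ± 16.3), eccentric spiny neurons (139 ± 15.5) and interneurons (134 ± 6.26). Astrocytes kept 73.6 ± 13.3 CPM and precursors 41.8 ± 4.31, while microglia (3.71 ± 2.10) and oligodendrocytes (2.27 ± 1.80) were near 0. Shank2 had averages of 141 to 163 CPM in the 5 neuron classes ordered here, with overlapping ranges of neighbours, and 38.6 ± 15.8 in astrocytes. Of the 9 classes ordered, Shank1 was highest in interneurons (86.8 ± 15.7), without overlap with the Htr4 and Drd3 cluster (44.1 ± 5.16) or any other class in that order, and D1 neurons had 32.6 ± 3.09 CPM. Neuron classes with too few nuclei for that order differed from this: glutamatergic neurons had 270, 226 and 163 CPM of Shank2 and 126, 107 and 108 CPM of Shank1, above the interneurons of the same library, and cholinergic interneurons had 58.9, 103 and 104 CPM of Shank2 and 111, 70.1 and 88.9 CPM of Shank1.

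**Figure D1:**
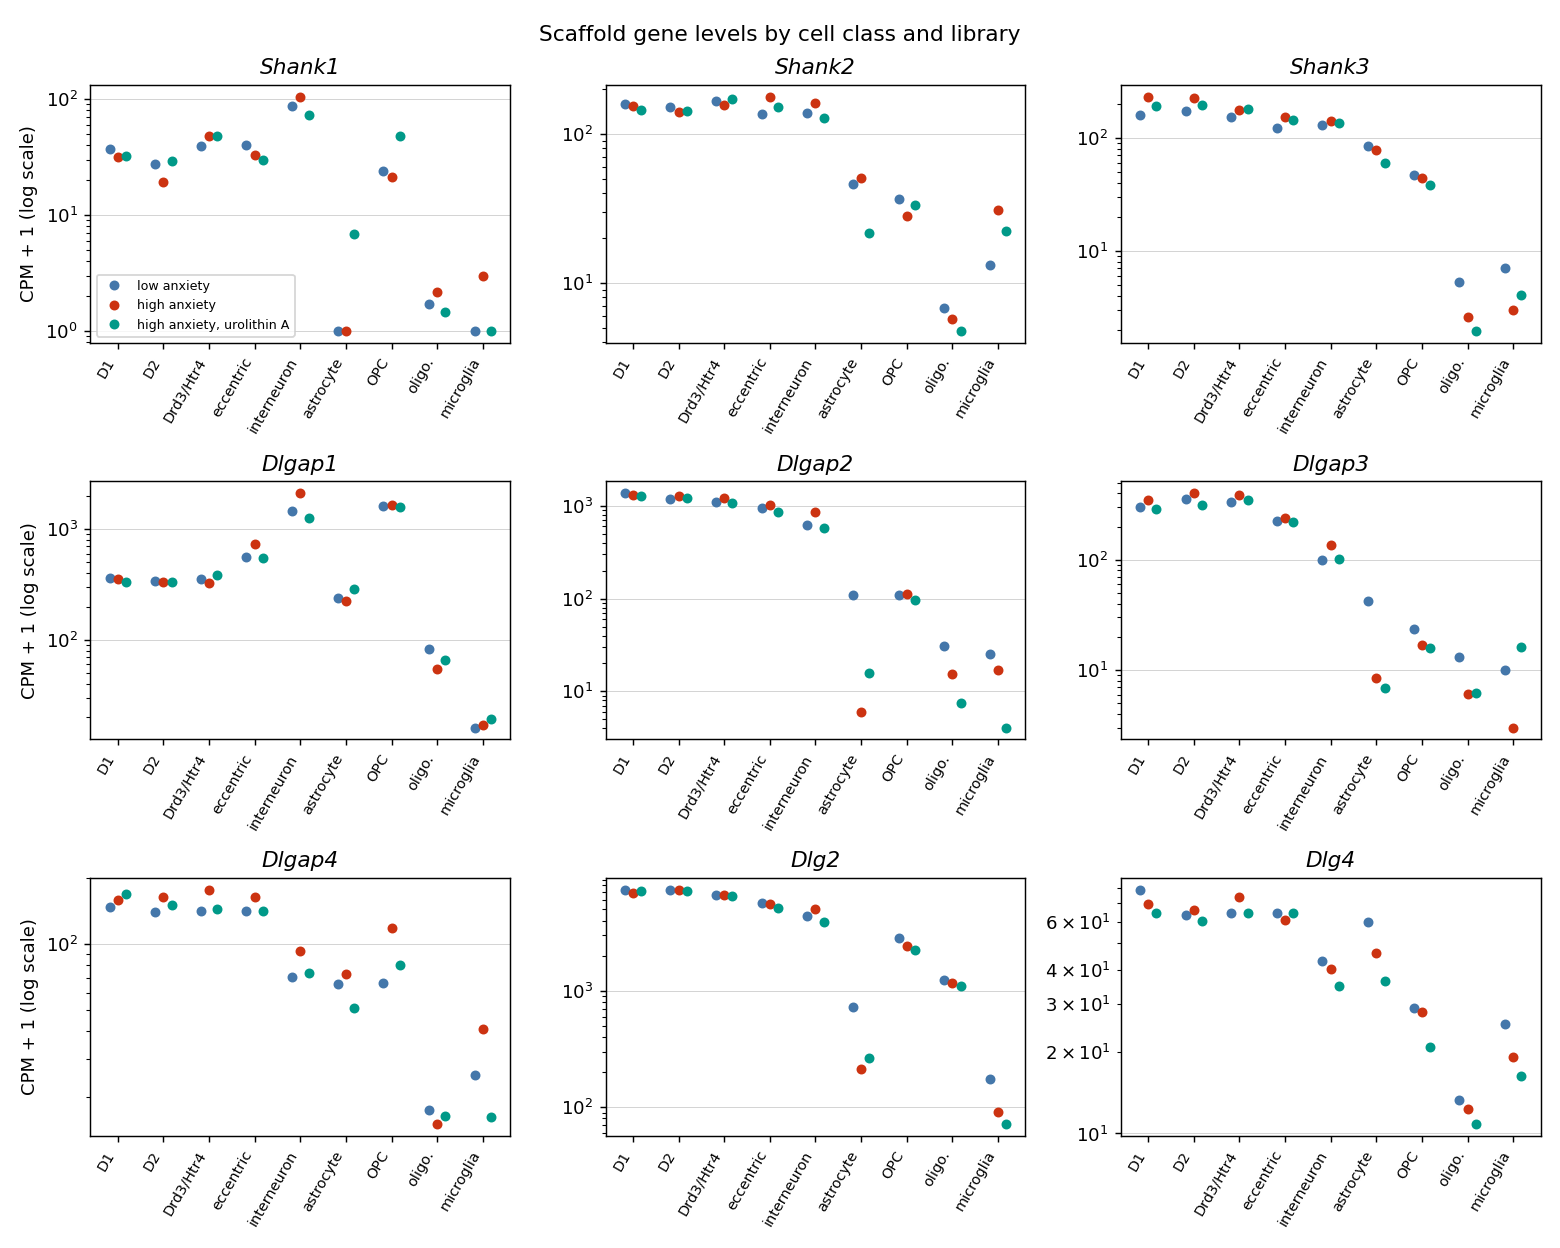
Levels of the 9 genes in 9 cell classes, 1 panel per gene, on a log axis of CPM + 1, with 1 point for each library. Of the classes plotted, Dlgap1 stands high in interneurons and oligodendrocyte precursors (oligo. and OPC mark oligodendrocytes and their precursors), Shank1 in interneurons, and the other genes are high in the spiny classes. Shank2 in interneurons overlaps with its range in the spiny classes.

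The promoters of Shank3 and Dlgap3, the genes whose values chose the set, are printed from RefSeq, build GRCr8, with that of Dlgap4 beside them to show that base composition differs within the set. Each window runs from 250 bases before to 50 after the annotated start, 5′ to 3′ on the plus strand. The count files use another build, mRatBN7.2, so these coordinates are not theirs. Of the set, 6 genes had an entry in the promoter table. Capitals mark letters of a motif searched on both strands: the CCAAT box (CCAAT, or ATTGG on the other strand) in Shank3 and the GC box (GGGCGG, or CCGCCC) in Dlgap4. Shank3 at chr7:122448073-122448372, Dlgap3 at chr5:144800015-144800314 and Dlgap4 at chr3:165584110-165584409 read:
Shank3: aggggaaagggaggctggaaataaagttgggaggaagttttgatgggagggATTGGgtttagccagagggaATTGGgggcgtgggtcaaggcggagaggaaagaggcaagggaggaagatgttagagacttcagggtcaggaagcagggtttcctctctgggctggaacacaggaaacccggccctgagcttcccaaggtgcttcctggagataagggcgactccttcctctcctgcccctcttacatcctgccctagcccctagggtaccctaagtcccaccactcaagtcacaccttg
Dlgap3: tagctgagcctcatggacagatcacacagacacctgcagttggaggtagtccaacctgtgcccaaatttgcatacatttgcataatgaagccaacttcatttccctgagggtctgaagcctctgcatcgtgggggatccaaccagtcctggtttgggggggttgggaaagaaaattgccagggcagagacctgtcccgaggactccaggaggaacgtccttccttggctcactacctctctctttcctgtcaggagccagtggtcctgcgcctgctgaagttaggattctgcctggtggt
Dlgap4: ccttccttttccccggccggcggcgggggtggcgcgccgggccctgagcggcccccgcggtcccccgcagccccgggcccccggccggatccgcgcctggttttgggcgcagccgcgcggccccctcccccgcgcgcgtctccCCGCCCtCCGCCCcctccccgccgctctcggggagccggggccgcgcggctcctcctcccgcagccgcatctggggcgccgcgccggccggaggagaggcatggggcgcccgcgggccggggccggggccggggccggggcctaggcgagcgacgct

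The Shank3 window had a GC content of 56.3%, 4 CpG pairs and 2 CCAAT boxes. A CCAAT box was in 37.5% of all 33469 promoter windows of the table. The Dlgap3 window had 54% GC and 4 CpG pairs, and none of the 6 motifs searched was among its letters. Both are near the middle of the table, whose median GC was 51.7% with 7 CpG pairs. Dlgap4 differed from them with 85.3% GC, above 99.9% of all windows, 50 CpG pairs and 2 GC boxes, a motif held by 33.1% of windows. The other motifs searched were TATAAA (14.2% of windows), TGACGTCA (1.83%), CACGTG (6.42%) and GCGNGGGCG (4.98%). A match is a run of letters and not a bound site.

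Class differences were tested with edgeR's quasi-likelihood test on the class sums of the 3 libraries with the library as a block, adjusted by Benjamini-Hochberg over all genes tested. The libraries stand in for replicates although they differ in treatment, so the p-values measure the spread over these 3 pools. D2 neurons had more Dlgap3 than D1 neurons, by a log2 fold of 0.23 (SE 0.05, adjusted p = 0.000445, edgeR), in 3 of 3 libraries. Shank1 was lower in D2 neurons by a log2 fold of -0.38 (SE 0.13, adjusted p = 0.0405, edgeR), in 3 of 3 libraries. The others did not pass, with Shank3 at 0.07 (adjusted p = 0.548, edgeR) and Dlg2 at 0.07 (adjusted p = 0.146, edgeR). In this comparison 12.6% of 11346 genes passed, against 2 of 9 here. Neither call held under DESeq2 (adjusted p = 0.0677 for Dlgap3 and 0.856 for Shank1) or without the block (0.463 and 0.384). Shank1 also did not pass without the low anxiety library (0.131) or without the high anxiety library (0.421).

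Interneurons differed from D1 and D2 neurons in all 9 genes, where 56.9% of 11770 genes passed, 3463 of them higher and 3231 lower. The direction divided the families. Dlgap1 was higher in interneurons by a log2 fold of 2.04 (SE 0.09, adjusted p = 2.40e-14, edgeR) and Shank1 by 1.44 (SE 0.13, adjusted p = 4.96e-09). The others were lower. Dlgap3 had a log2 fold of -1.75 (SE 0.07, adjusted p = 2.21e-14, edgeR) and Shank3 of -0.72 (SE 0.07, adjusted p = 3.35e-08, edgeR), opposite in sign to Dlgap1 and Shank1 of the same families. Dlgap4 had -1.16, Dlgap2 -1.07, Dlg4 -0.97 and Dlg2 -0.89. Without the Crh and Spp1 cluster all 9 also passed with these directions, and Dlgap1 had 2.46, Dlgap2 -0.49, Dlg2 -0.57 and Shank2 -0.49. With it Shank2 had the smallest difference, at -0.24 (SE 0.08, adjusted p = 0.0103, edgeR). It was higher in interneurons in 1 of 3 libraries and did not pass under DESeq2 (adjusted p = 0.0693), with scaling to the library total (0.453), with at least 100 UMIs required (0.0746), or without the low anxiety (0.145) or urolithin A library (0.183).

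Precursors of oligodendrocytes, which receive synapses from axons, were compared with the oligodendrocytes they mature into. Of the 8 genes with enough counts, 8 were higher in precursors, but Shank3 could not have been lower, as given below. Among all genes 53.2% of 9713 passed in either direction, 2606 higher and 2563 lower. Dlgap1 differed by a log2 fold of 4.55 (SE 0.13, adjusted p = 9.48e-20, edgeR). Shank3 had a log2 fold of 4.21 (SE 0.41), given as a description. Dlgap2 (2.66), Shank2 (2.63) and Dlgap4 (2.46) followed. Shank3 reached the UMI limit for testing through precursors alone, with 18, 19 and 15 UMIs there against 6, 4 and 2 in oligodendrocytes. The size of its fold rests on these few oligodendrocyte UMIs. A gene that enters through precursors alone can only be higher there, so the filter fixed the direction of Shank3 and it is no result. Shank2 had 14, 12 and 13 UMIs in precursors and 8, 12 and 8 in oligodendrocytes. Dlgap3 reached the limit through oligodendrocytes alone (17, 13 and 11 UMIs, against 9, 7 and 6 in precursors). The smallest by edgeR were Dlgap3 (1.20, adjusted p = 0.0157), Dlg4 (1.07, adjusted p = 0.00991) and Dlg2 (1.00, adjusted p = 1.10e-08). With doublets kept, Dlgap2 and Dlgap3 turned to -0.71 and -1.53, and Shank2 (0.44), Shank3 (0.51) and Dlg4 (0.17) no longer passed. Without any 1 of the libraries, too few counts were left to test Shank3 and Dlgap3, Dlg4 did not pass, and 4 to 5 genes passed. Committed precursors, the step between these classes, had 16, 36 and 28 nuclei, with Dlgap1 at 320, 201 and 383 CPM, between both classes in each library. Their Dlgap4, at 356, 385 and 274 CPM, was above both classes in each library.

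**Figure D2:**
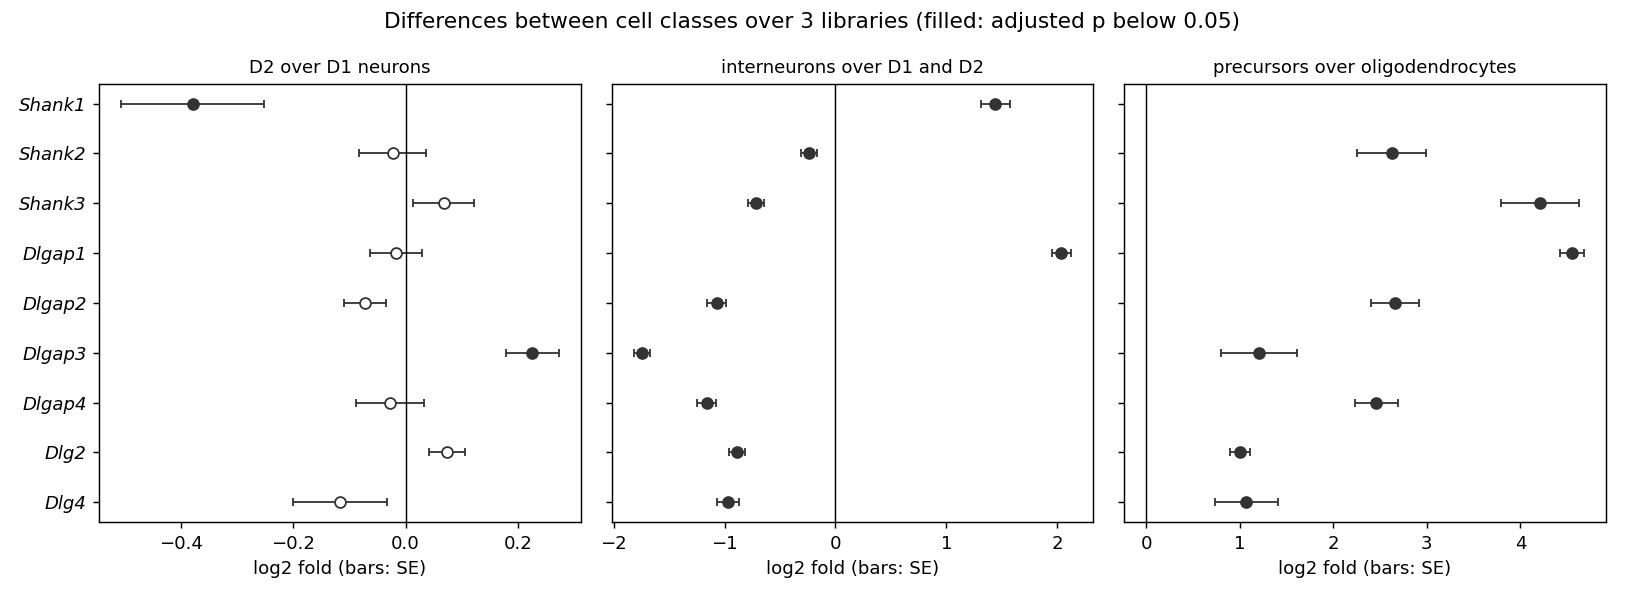
Log2 folds of the 9 genes in 3 class comparisons over 3 libraries, with bars for the standard error and filled points for an adjusted p below 0.05 (edgeR). Dlgap1 and Shank1 lie right of 0 in interneurons and the other 7 left of it, and the 8 genes tested lie right of 0 in precursors over oligodendrocytes. Shank3 entered the last comparison through precursors alone and could not lie left of 0 there.

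Partner genes were followed in lists chosen with earlier results of these data known. Of 35 postsynaptic density partners, such as Homer1 and Camk2a, 34 were tested in interneurons, and 24 were lower and 4 higher than in D1 and D2 neurons, with a median log2 fold of -1.20 against 0.01 over all genes, of which 3463 were higher and 3231 lower of 11770. Of 16 glutamate receptors and auxiliary subunits 15 were tested, 8 lower and 5 higher (median -0.56). The postsynaptic adhesion genes, neuroligins and their like, had 7 higher and 4 lower of 14 (median 0.26). In D2 over D1 neurons the same lists had 10 higher and 1 lower of 33, 6 and 2 of 15, and 2 and 3 of 14, with medians of 0.10, 0.10 and 0.00, where 759 genes were higher and 674 lower of 11346 in all. In precursors over oligodendrocytes 31 of 35, 10 of 16 and 12 of 15 listed genes were tested. They had 18 higher and 4 lower, 10 and 0, and 10 and 1, with medians of 0.55, 4.16 and 2.56. Of all 9713 genes tested there, 2606 were higher and 2563 lower. A listed gene that reached the UMI limit through precursors alone could only be higher. Such genes were not counted apart, so these counts and medians are a description. The lists were not run without the Crh and Spp1 cluster.

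In D1 neurons Shank3 was at 158 CPM (437 UMIs) in low anxiety, 231 CPM (721 UMIs) in high anxiety and 193 CPM (723 UMIs) in urolithin A. The high anxiety library was the highest and the urolithin A library lay between the others. High anxiety over low anxiety was 1.46-fold, a log2 ratio of 0.55 with a 95% interval for counting error of 0.38 to 0.72, and 97.4% of the 5724 genes measured had a lower ratio. Urolithin A over high anxiety was -0.26 (-0.42 to -0.11), and urolithin A over low anxiety was 0.29 (0.11 to 0.46). Both comparisons share the high anxiety library, so a high value there alone gives opposite signs in them. These ratios chose Shank3 and support nothing by themselves.

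Dlgap3 was at 299, 349 and 286 CPM in D1 neurons, again highest in high anxiety. Its ratios were 0.22 (0.09 to 0.36) for high over low anxiety, -0.29 (-0.41 to -0.16) for urolithin A over high anxiety, and -0.06 (-0.19 to 0.07) for urolithin A over low anxiety. By a rule of 1.25-fold (a log2 ratio of 0.32) on genes with at least 100 UMIs in 1 of the 2 libraries, Shank3 was the 1 gene of 9 that was higher in high anxiety, where 9.28% of all genes measured were higher, and 0 of 9 were lower, where 9.99% were lower. Under urolithin A 0 of 9 were higher (8.96% of all genes) and 0 of 9 lower (4.42%) than in high anxiety. Dlgap3 was the member nearest to the limit there.

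The other genes of the chain differed little between the D1 libraries. Shank2 was at 158, 152 and 144 CPM and Shank1 at 36.1, 30.5 and 31.2 CPM. Dlgap1 (364, 352 and 335), Dlgap2 (1371, 1321 and 1289) and Dlg4 (77.7, 68.9 and 63.4) had high over low anxiety ratios of -0.05, -0.05 and -0.17, with intervals that include 0. Dlgap4 was at 147, 159 and 168 CPM, with 0.11 (-0.08 to 0.31). Dlg2, with 20334 to 26906 UMIs, had narrow intervals: -0.09 (-0.12 to -0.07) for high over low anxiety and 0.06 (0.03 to 0.08) for urolithin A over high anxiety. The median over the 9 genes was -0.05 and -0.07 in these comparisons, against 0.01 and 0.03 over all genes measured.

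In D2 neurons Shank3 was at 172, 225 and 195 CPM, in the same order of libraries as in D1 neurons. High over low anxiety was 1.31-fold (0.39, 0.23 to 0.54), above 94.7% of 6266 genes, and urolithin A over high anxiety was -0.20 (-0.35 to -0.06). Dlgap3 was at 353, 401 and 310 CPM, with 0.18 (0.07 to 0.29) and then -0.37 (-0.48 to -0.26), a fold of 0.774, and 3.22% of genes had a lower ratio. Dlgap4 (139, 163 and 150 CPM) had 0.23 (0.06 to 0.40), and Dlgap2 (1187, 1273 and 1215 CPM) had 0.10 (0.04 to 0.16). Dlgap1 (342, 331 and 334), Shank2 (150, 140 and 142), Dlg4 (62.3, 65.5 and 59.5) and Dlg2 (7344, 7363 and 7164) had high over low anxiety ratios of -0.05, -0.10, 0.07 and 0.00.

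By the same rule 1 of the 8 genes measured in D2 neurons, Shank3, was higher in high anxiety (7.76% of all genes) and 0 were lower (10.4%). Under urolithin A 0 were higher than in high anxiety (10.2%) and 1, Dlgap3, was lower (4.93%). The median over the 8 genes was 0.09 and -0.10, against 0.00 and 0.03 over all genes. Shank1 had fewer than 100 UMIs in each D2 library (92, 69 and 99, at 26.6, 18.1 and 28.2 CPM) and was not counted. Under a stricter nucleus filter (1000 genes or more, mitochondrial share up to 1%), Shank3 in D2 neurons was at 0.26, within the 1.25-fold limit. Under that filter the spiny clusters split by library: 1 D2 cluster held 433, 5 and 3 nuclei and the other 3, 337 and 285. Both were summed in the class, and the part of the split in this value was not tested.

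**Figure D3:**
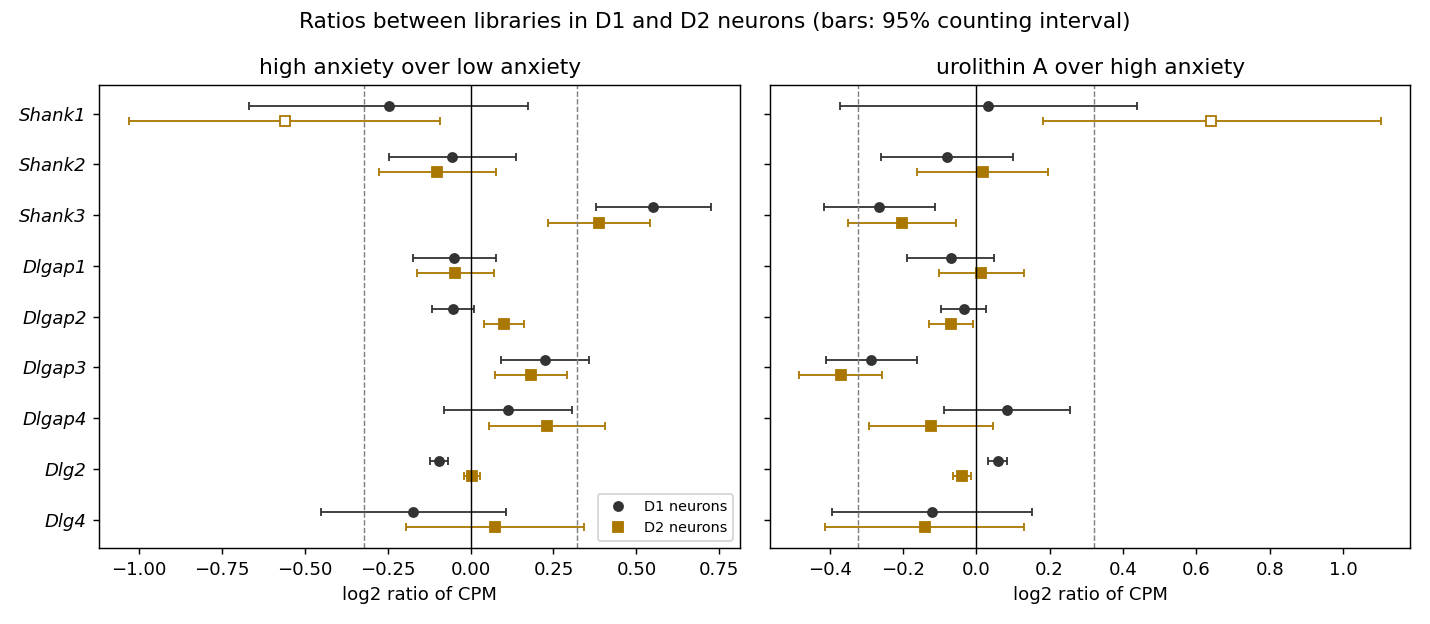
Log2 ratios of the 9 genes between libraries in D1 and D2 neurons, with 95% intervals for counting error, a dashed line at 1.25-fold, and open symbols for genes with too few UMIs. Shank3 lies right of the line for high over low anxiety in both classes (0.55 and 0.39), and Dlgap3 lies left of 0 for urolithin A over high anxiety in both (-0.29 and -0.37).

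The share of nuclei with a Shank3 UMI was 56.3%, 75.9% and 66.6% in D1 neurons and 60.8%, 78.8% and 69.9% in D2 neurons. Depth differed in the same order, with a median of 5692, 7125 and 6469 UMIs per D1 nucleus and 5738.5, 7294 and 6392 per D2 nucleus. After each nucleus was thinned to 3000 UMIs, with 16 to 23 shallower D1 nuclei and 6 to 22 D2 nuclei left out per library, the shares were 33.5%, 48.4% and 42.8% in D1 and 40.4%, 50.9% and 46.1% in D2 neurons, and the order of the libraries was the same. For Dlgap3 the thinned shares were closer: 56.5%, 59.1% and 54.5% in D1 neurons (73.9%, 86.2% and 78.5% before) and 63.3%, 66.1% and 58.0% in D2 neurons (79.1%, 87.1% and 81.2% before). In oligodendrocytes, which should lack both transcripts and had medians of 1821 to 2257 UMIs, the unthinned shares were 0.216% to 0.852% for Shank3 and 0.974% to 2.13% for Dlgap3.

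Other measures moved with the libraries beside Shank3 and Dlgap3. The 8 ventral striatum and shell markers were lowest in high anxiety, with sums of 1652, 1306 and 1688 CPM in D1 and of 1621, 1316 and 1701 CPM in D2 neurons. In D1 neurons 4 of the 7 measured were lower in high than in low anxiety (9.99% of all genes) and 0 were higher (9.28%). Under urolithin A 4 of 7 were higher than in high anxiety (8.96%) and 0 lower (4.42%). In D2 neurons 3 of 6 were lower in high anxiety (10.4%) and 0 higher (7.76%). Under urolithin A 4 of these 6 were higher (10.2%) and 1 lower (4.93%). The 5 dorsal striatum and core markers summed to 395, 351 and 327 CPM in D1 and 161, 149 and 149 CPM in D2 neurons. The 13 mitochondrially encoded genes summed to 7977, 10187 and 11258 CPM in D1 and 6862, 8426 and 10997 CPM in D2 neurons. Markers shared by spiny neurons summed to 9662, 10487 and 9135 CPM in D1 and 11552, 12219 and 10468 CPM in D2 neurons, highest in high anxiety. Oligodendrocyte markers summed to 163, 214 and 240 CPM and microglial markers to 59.6, 67.7 and 71.6 CPM in D1 neurons. The part of the dissected subregion, of depth and of RNA from other cells in the Shank3 and Dlgap3 ratios was not tested.

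At a finer resolution the spiny neurons fell into 8 clusters outside the eccentric class, and Shank3 was higher in high than in low anxiety in 8 of 8, past 1.25-fold in 7. Its ratios ran from 0.23 in the cluster led by Nmb and Rasgrf2 to 0.68 in the one led by Dlk1 and Kl, where it went from 151 to 241 CPM. Under urolithin A it was lower than in high anxiety in 6 of 8. The clusters are not replicates, since all of a library's clusters share its pool of animals.

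Dlgap3 was less even. It was higher in high than in low anxiety in 7 of 8 clusters and lower in the one led by Calcr and Kl, by a log2 ratio of -0.39. No interval is given for this ratio. At resolution 1 the D2 cluster led by Calcr and Kl had few Dlgap3 UMIs (102, 89 and 113, in 66, 49 and 89 nuclei). The cluster led by Calcr and Kl was at 333, 254 and 211 CPM, and the D2 cluster led by Fst and Calcr at 261, 391 and 300 CPM (0.59, then -0.38). The main D2 cluster, led by Drd2 and Adora2a, had 401, 428 and 348 CPM, little different between the untreated libraries (0.09, -0.04 to 0.23) and lower under urolithin A (-0.30, -0.45 to -0.15). Under urolithin A Dlgap3 was lower than in high anxiety in 7 of 8 clusters. Dlgap2 was lower under urolithin A than in high anxiety in 8 of 8 clusters (-0.33 to -0.02), past 1.25-fold in 1, and Shank2 was lower in high than in low anxiety in 7 of 8 (-0.40 to 0.08).

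**Figure D4:**
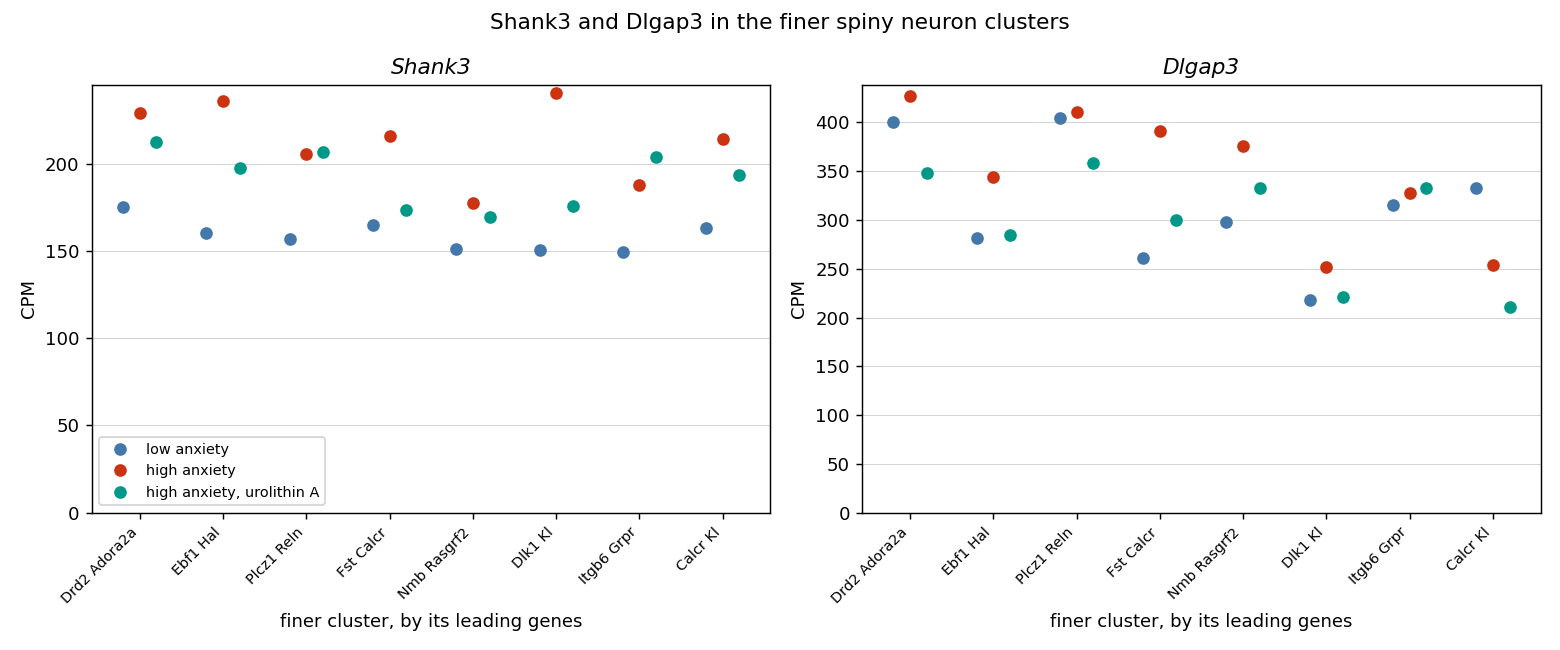
Shank3 and Dlgap3 levels in CPM in 8 finer spiny neuron clusters, each named by 2 leading genes, with 1 point per library. Shank3 is lowest in the low anxiety library in all 8 clusters, and Dlgap3 is highest in the high anxiety library in 6 of them.

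The Htr4 and Drd3 cluster, left outside the D1 name, had a flatter Shank3 at 151, 177 and 181 CPM, with no fall under urolithin A. With this cluster counted as D1, an alternative chosen after seeing the data, Shank3 in D1 neurons was at 155, 209 and 189 CPM. The cluster's Dlgap3 was at 331, 388 and 345 CPM, and its Dlgap4 at 141, 176 and 143 CPM, with a high over low anxiety ratio of 0.33 (0.10 to 0.55). Eccentric spiny neurons, a rarer type that is neither canonical D1 nor D2, had Shank3 at 123, 153 and 142 CPM (0.32, 0.05 to 0.60) and Shank2 at 134, 177 and 152 CPM (0.40, 0.14 to 0.66), while their Dlgap3 was level at 225, 239 and 218 CPM. A cluster led by Stac and Exph5 (102, 11 and 16 nuclei) also took the eccentric name but was kept out of the class, being mostly of the low anxiety library. It had Shank3 at 118, 139 and 165, Shank2 at 206, 239 and 227 and Dlgap1 at 225, 219 and 227 CPM. The class ratios depend on leaving it out, and ratios with it are not given.

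Dlgap1, level over the libraries in D1 and D2 neurons, differed between the libraries in interneurons, at 1468, 2106 and 1264 CPM. High over low anxiety was 0.52 (0.44 to 0.61) and urolithin A over high anxiety was -0.74 (-0.80 to -0.67). Without the Crh and Spp1 cluster it was at 1934, 2451 and 1826 CPM, with 0.34 (0.22 to 0.46) and -0.42 (-0.52 to -0.33). In that cluster alone it was at 1185, 1865 and 975 CPM. The class is a mixture whose parts differ in Dlgap1: at the finer resolution the cluster led by Pthlh and Igfbp4 had 3394, 3332 and 3025 CPM, with a high over low anxiety ratio of -0.03 (-0.17 to 0.11), and that led by Npy and Sst had 759, 1059 and 789 CPM. The cluster led by Trh and Chrna3 had 1482, 2191 and 1302 CPM, and that led by Spp1 and Crh 1046, 1579 and 948 CPM. In the last 3 the high anxiety library was the highest, with 22 to 226 nuclei behind each value.

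The same was seen in a part of the eccentric spiny neurons. The class had Dlgap1 at 557, 735 and 543 CPM (0.40, 0.28 to 0.53, then -0.44, -0.57 to -0.31). Its finer cluster led by Chst9 and Col14a1 had 1130, 1650 and 1269 CPM, and that led by Mdfic and Casz1 had 363, 398 and 295 CPM. Glutamatergic neurons and precursors of oligodendrocytes, both high in Dlgap1, had high over low anxiety ratios of 0.01 and 0.04 and urolithin A over high anxiety ratios of -0.10 and -0.06. Other genes moved with Dlgap1 in the interneurons: Dlgap2 was at 624, 869 and 578 CPM, Dlg2 at 4363, 4980 and 3866, Dlgap3 at 98.6, 135 and 100 and Shank1 at 85.2, 103 and 72.0 CPM. Shank3 stayed at 128, 141 and 134 CPM. Without the Crh and Spp1 cluster the high anxiety library was also the highest in these genes, with Dlgap2 at 897, 1157 and 918, Dlgap3 at 66.4, 113 and 96.9, Shank1 at 85.4, 109 and 71.4 and Shank3 at 112, 142 and 120 CPM. The interneuron markers of the class summed to 6771, 6777 and 5860 CPM, and those of the Crh and Spp1 cluster to 1628, 2175 and 432 CPM. How much of the Dlgap1 difference lies in the mix of interneurons was not tested beyond these clusters.

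**Figure D5:**
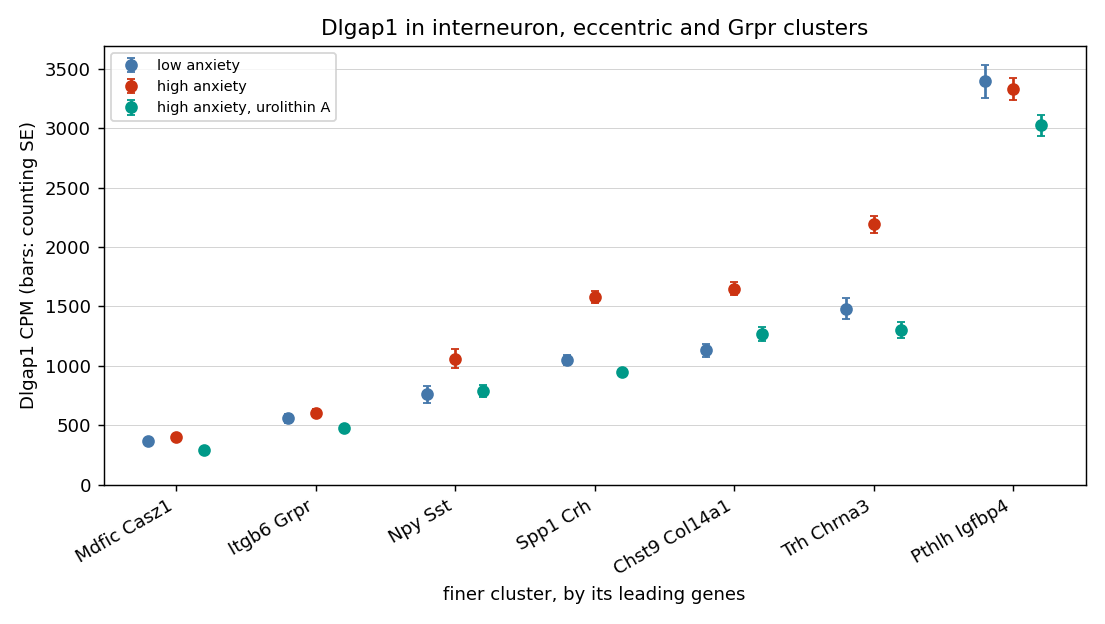
Dlgap1 levels in CPM in 7 finer clusters of interneurons, eccentric spiny neurons and the Itgb6 and Grpr cluster, 1 point per library, with bars for the standard error of counting. The high anxiety library is the highest in 6 clusters, and the cluster led by Pthlh and Igfbp4 has 3394, 3332 and 3025 CPM.

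Among glia the differences in astrocytes and oligodendrocytes given here rested on few UMIs or few nuclei. In their precursors Dlg2 was at 2834, 2407 and 2239 CPM, on 1120, 1068 and 905 UMIs in 134, 134 and 140 oligodendrocyte precursors. Dlg2 in astrocytes was at 729, 212 and 262 CPM. Of the 371 Dlg2 UMIs in the low anxiety astrocytes, 167 lay in 5 of 225 nuclei, each with at least 6585 UMIs in all against a median of 2086. Without these 5 nuclei, chosen after their values were seen, Dlg2 was at 433 CPM, Dlgap2 went from 108 to 25.5 and Dlgap3 from 41.3 to 27.6 CPM. Spiny neuron markers summed to 2043, 1408 and 1462 CPM in astrocytes, again highest in low anxiety, and their part in these values was not tested. In oligodendrocytes Dlgap1 was at 81.3, 54.0 and 64.5 CPM, a high over low anxiety ratio of -0.59 (-0.96 to -0.22). Dlg2 in oligodendrocytes was level at 1236, 1168 and 1100 CPM, where spiny markers summed to 799, 682 and 633 CPM.

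Partner genes were counted in spiny neurons by the same 1.25-fold rule. Of 29 postsynaptic density partners measured in D1 neurons for high over low anxiety, 2 were higher and 2 lower, lower shares than over all genes (9.28% and 9.99%). Begain, a PSD-95 binding protein, was at 172 and 108 CPM (-0.66), Agap2 at -0.40, and Iqsec2, an Arf exchange factor at excitatory synapses, at 0.35. In D2 neurons 1 of 31 was higher (Dynll2, 0.52) and 1 lower (Begain, -0.45), again lower shares than over all genes (7.76% and 10.4%), and Lzts3 had -0.30. Glutamate receptors had 0 of 13 past the limit in both classes, with Cacng3 (-0.31) and Cacng2 (0.28) furthest from 0 in D1 and Gria4 (0.30) in D2 neurons.

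Under urolithin A glutamate receptors were lower than in high anxiety in 3 of 13 in D1 neurons, where 4.42% of all genes were lower, and in 2 of 13 in D2 neurons (4.93%), and 0 were higher (8.96% and 10.2%). Grin2a, an NMDA receptor subunit that the Dlg proteins bind, went from 254 to 165 CPM in D1 (-0.62) and from 347 to 244 CPM in D2 neurons (-0.50). Cacng2 had -0.40 in D1 and Gria3 -0.26 in D2 neurons. Of the postsynaptic density partners 1 of 30 was higher (Dynll1, 0.34) and 1 lower (Grip1, -0.43) in D1 neurons, with Begain at 0.31. In D2 neurons 1 of 31 was higher (Prr7, 0.37) and 1 lower (Lzts1, -0.45), with Cttn at -0.31. These single genes of 30 and 31 are lower shares than those of all genes just given. Adhesion genes had 1 of 7 higher in D1 (Lrfn1, 0.34) and 1 of 8 in D2 (Lrfn1, 0.58) for high over low anxiety, against 9.28% and 7.76% of all genes, and 0 of 8 and 1 of 8 lower (Nlgn2, -0.36) under urolithin A, against 4.42% and 4.93%.

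Across 24 sums (8 classes in 3 libraries) and 8064 genes, the genes most like Shank3 by Pearson correlation of log2(CPM + 1) were Ptprn2 (0.990), Atxn1 (0.981) and Arhgef17 (0.978). Those most like Dlgap3 were Synpr (0.980), Kcnh1 (0.978) and Camk2b (0.974). Of the set, Dlg4 (0.928) was nearest to Shank3 and Dlgap2 (0.940) to Dlgap3, while Shank3 and Dlgap3 had 0.839 with each other and Dlgap1 had 0.742 and 0.513 with them. The points share libraries and depth and the values are a description. Beside the D1 values of Shank3 and Dlgap3, Ptprn2 was at 958, 966 and 936 CPM and Synpr at 517, 521 and 497 CPM in D1 neurons, close to level over the libraries.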

How the data were processed

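Raw UMI counts of every feature in every barcode were deposited. Per the file headers they come from Cell Ranger 7.1.0, and the submitters' processing notes name mRatBN7.2 as the build. Whether free RNA had been removed is not known from these sources. Nuclei needed 500 genes and a mitochondrial share up to 5%. The highest Scrublet scores (0.8% per 1000 nuclei) were dropped as doublets, 97, 116 and 99 nuclei. Counts were log-scaled, and 2000 variable genes (none of the 9 members), 30 components and Leiden resolution 1 (scanpy 1.11.5, leidenalg 0.10.2, python 3.11.15) gave clusters, named from marker lists. A name needed 3 markers at least 2-fold higher than in the pooled nuclei of all other clusters. Spiny clusters then took the D1, D2 or eccentric name with the highest mean log2 fold of its markers. The name was withheld where the leading genes held more markers of another. The eccentric cluster led by Stac and Exph5 (102, 11 and 16 nuclei) was kept out of its class because most of it was of the low anxiety library.

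CPM values are sums of UMIs over a class in 1 library, divided by that class's own total. Ratios between libraries have exact conditional 95% intervals (Clopper-Pearson, scipy 1.17.1), and UMIs of 1 nucleus are not independent, so intervals cover counting error only. There is no test between conditions. Class contrasts used edgeR 4.0.16 (R 4.3.3, TMM scaling, at least 10 UMIs in 3 sums, threshold 0.05) with DESeq2 1.42.0 beside it. The ratio and class tests were tested on simulated data. Classes entered the order of levels with at least 100 nuclei in each library, and genes entered the likeness with a mean of 20 CPM.

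Members, lists and rules were chosen with earlier results of these data known. Named were the 9 members, the 3 measured genes furthest from 0 in each partner list, comparison and class (not all are printed for adhesion genes, and 1 gene of the receptor list is not reported here), and the 3 genes most like Shank3 and Dlgap3. Promoter windows came from RefSeq (GRCr8, 27457 genes). Alternatives covered nucleus filters, doublets, clustering, scaling, depth, UMI limits and each library left out.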

Additional observations from a re-analysis of the deposited data

Results flagged for a closer look

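Dlgap1 differed between cell classes in the direction of its high over low anxiety ratio, with intervals on opposite sides of 0. The log2 ratio was 0.52 in GABAergic interneurons (1468 and 2106 CPM) and 0.40 in eccentric spiny neurons (557 and 735 CPM), and -0.59 in oligodendrocytes (81.3 and 54.0 CPM). The difference between these classes was not tested, since each condition has 1 library. The share of oligodendrocytes with a Dlgap1 UMI was 9.80%, 8.05% and 8.98%. In the oligodendrocyte cluster led by Ackr4 and Tnfaip6 Dlgap1 was at 312, 307 and 336 CPM, and in the one led by Mal and Ptgds at 55.9, 37.5 and 45.5 CPM. The cluster led by Slc5a11 and Cyp2j10 had 29.6, 13.7 and 5.91 CPM (12, 12 and 4 UMIs). The Ackr4 cluster held 59 of 704, 59 of 1043 and 62 of 924 nuclei, with 56 of 113, 72 of 138 and 78 of 138 Dlgap1 UMIs. How much of the ratio lies in this mix was not tested.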

How the results depend on the processing

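Shank3 stayed higher in high than in low anxiety under the 13 alternatives run, with log2 ratios between 0.42 and 0.58 (D1) and between 0.26 and 0.47 (D2). The stricter nucleus filter also changed the D1 class, to 3.39e+06, 1.85e+06 and 2.07e+06 UMIs from 2.77e+06, 3.12e+06 and 3.76e+06, so its D1 value compares other nuclei. Without a nucleus filter, with doublets kept, without the partner genes in clustering and at resolution 2, the D1 class also held other nuclei. Its totals were 4.79e+06 to 4.86e+06, 5.27e+06 to 5.31e+06 and 5.22e+06 to 5.35e+06 UMIs, close to those with the Htr4 and Drd3 cluster counted in. Shank3 was at 155 to 156, 208 to 210 and 189 to 191 CPM in these settings. They are not separate checks of the same D1 nuclei. Dlgap3 stayed lower under urolithin A than in high anxiety, between -0.32 and -0.24 (D1) and between -0.40 and -0.32 (D2). In D1 neurons 3 of the 13 could not change a value, and in D2 neurons 1 could not: none of the 9 genes was variable enough to enter the clustering, and the D1 class is 1 cluster. Of 416 values of the other 32 ratios of the 9 genes, 396 moved by less than their counting interval and 20 by more. Ratios near 0 changed sign, such as Shank1 (-0.37 to 0.19), Dlgap1 (-0.090 to 0.17) and Dlg4 (-0.18 to 0.045) for high over low anxiety in D1 neurons. In D2 neurons the members past 1.25-fold for high over low anxiety were 0 with the stricter nucleus filter, under which the D2 clusters split by library, and 2 with at least 20 UMIs. For urolithin A over high anxiety they were 2 without a nucleus filter, 2 with doublets kept, 2 with the mean of per-nucleus fractions and 2 with at least 20 UMIs.

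In D2 over D1 neurons 1433 genes and 2 members passed. DESeq2 gave 539 genes and 0 members, no library block 469 and 0, the stricter nucleus filter 889 genes, and at least 100 UMIs 1 member. At least 100 UMIs also gave 4121 genes for interneurons (6694 in the fit reported). For precursors (5169 genes, 8 members) it gave 2164 and 2, and the stricter filter 2731 and 3. These filters test fewer genes. Leaving out 1 library at a time gave 1031 to 1210 genes and 1 to 2 members for D2 over D1, 5240 to 5789 and 8 to 9 for interneurons, and 3276 to 3695 and 4 to 5 for precursors.

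Of 297 values of the members' class folds, 268 kept direction and call, 22 lost the call, 2 gained it and 5 changed sign. Those 5 were Dlgap1 in D2 over D1 with the Htr4 and Grpr clusters counted in (0.075, an alternative chosen after seeing the data), Dlgap2 there with doublets kept (0.0034), Dlgap4 there without the urolithin A library (0.033; without the others it was as low as -0.094), and in precursors Dlgap2 (-0.71) and Dlgap3 (-1.53) with doublets kept. The cause was not tested. No paired analysis was possible because each condition has 1 library. The library block of the class contrasts pairs sums of the same library, and its removal is given above. Shank1 and Dlg4 had few UMIs, and differences of Shank1 in D2 neurons were not detectable by the 100 UMI rule.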
